A study of Oryzias latipes with 10 samples.

Results

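The genes of the fibrinogen alpha, beta and gamma chains (fga, fgb and fgg) and of the plasmin inhibitor serpinf2 were followed in the liver of the freshwater fish medaka, Oryzias latipes. They were chosen by symbol, with earlier results of these data known. These 4 genes were found by their gene IDs among the 25795 genes of the deposited table. The mutants were pd1 knockout fish (KO), in which phod1, written pd1 in the labels, is disrupted, and they were set against wild-type fish (WT). Both groups lived under long days and gave their livers at noon, with 5 libraries each. Neither sex, age, strain, batch nor the number of mutant lines is given in the labels, and nothing says that each library is a separate fish, so p-values measure the spread between these libraries.

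Fibrinogen is made almost entirely by hepatocytes. Its alpha, beta and gamma chains are folded and joined by disulfide bonds in the endoplasmic reticulum (ER), 1 of each per arm of a mirror-image molecule, and secreted into plasma. Thrombin trims the alpha and beta chains so that fibrinogen assembles into fibrin, the mesh of a clot. Plasmin, which is made from plasminogen, cuts fibrin again, and the serpinf2 product, alpha-2-antiplasmin, is its main fast inhibitor in mammals. In the RefSeq gene table fga and fgb lie close together with a single gene between them, while fgg lies on another chromosome beside plrg1.

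The libraries were made by Lasy-Seq, which reads the 3' ends of transcripts, and held 4542721 to 10112313 reads in KO and 5422342 to 9803543 reads in WT. Values are in RPM, reads per 1000000 reads of the library, not divided by gene length because a 3' method does not read along the transcript. No entry of the gene table was named phod1 or pd1, so the knockout was not checked at its own transcript. The hepatocyte markers found were rbp4, at 2910 ± 548 RPM in KO and 2853 ± 523 RPM in WT, and hnf4a, at 28.3 ± 7.31 and 25.2 ± 3.36 RPM (mean ± SD, n = 5 each). In bulk liver, a change in the number of hepatocytes and a change in RNA per hepatocyte cannot be told apart.

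All 4 genes were higher on average in knockout liver, by 1.65 to 1.91 times, but only serpinf2 passed the test across all genes. The fibrinogen chains summed together were 1.72 times higher, and no difference in their proportions to each other passed a test. A single wild-type library, WT3, stood among the knockout values of the chains. Under the limma test, with a variance trend and a Benjamini-Hochberg adjusted p under 0.05 as the threshold, 2.85% of the 14984 tested genes were called in either direction, 1.17% higher and 1.68% lower.

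The beta chain gene fgb was the most abundant of the 4 over all libraries together and ranked 58 among all genes by mean RPM. Its level was 2519, 2037, 2417, 3137 and 3261 RPM in KO1 to KO5. In WT1 to WT5 it was 1355, 1400, 2788, 1211 and 805 RPM. WT3 lay above 3 of the knockout libraries, and the other 4 wild-type libraries lay below all 5 of them. The log2 fold change was taken on log2(RPM + 1) as KO less WT, and it was 0.92 ± 0.25 (SE), with a limma adjusted p of 0.0579.

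The gamma chain gene fgg carries, in mammals, the C-terminal part that platelets bind. Its level was 2223, 2156, 2325, 2896 and 3356 RPM in KO1 to KO5, and 1508, 1528, 2482, 1267 and 1070 RPM in WT1 to WT5. The order of the libraries was nearly that of fgb, with KO5 highest and WT5 lowest. Its log2 fold change was 0.76 ± 0.22, with a limma adjusted p of 0.0664.

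The alpha chain gene fga encodes the chain whose cut by thrombin starts fibrin assembly. It was the least abundant of the chain genes, at 1315, 945, 1206, 1828 and 1861 RPM in KO1 to KO5. In WT1 to WT5 it was 829, 851, 1343, 690 and 388 RPM. Again WT3 was the only wild-type library that overlapped with KO. The log2 fold change was 0.86 ± 0.27, with a limma adjusted p of 0.0963.

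The plasmin inhibitor gene serpinf2 rose in knockout liver without overlap between the groups. Its level was 545, 506, 451, 501 and 571 RPM in KO1 to KO5, against 280, 275, 399.6, 208 and 187 RPM in WT1 to WT5. The lowest knockout library, KO3, lay above the highest wild-type library, WT3, and 1.03% of all tested genes had all KO libraries above all WT libraries. The knockout libraries were close to each other, with a coefficient of variation of 8.9% in KO and 30.8% in WT. The log2 fold change was 0.98 ± 0.19, with a limma adjusted p of 0.00849, and all 10 fits that left out 1 library kept the call (limma adjusted p 0.000293 to 0.0375).

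**Figure D1:**
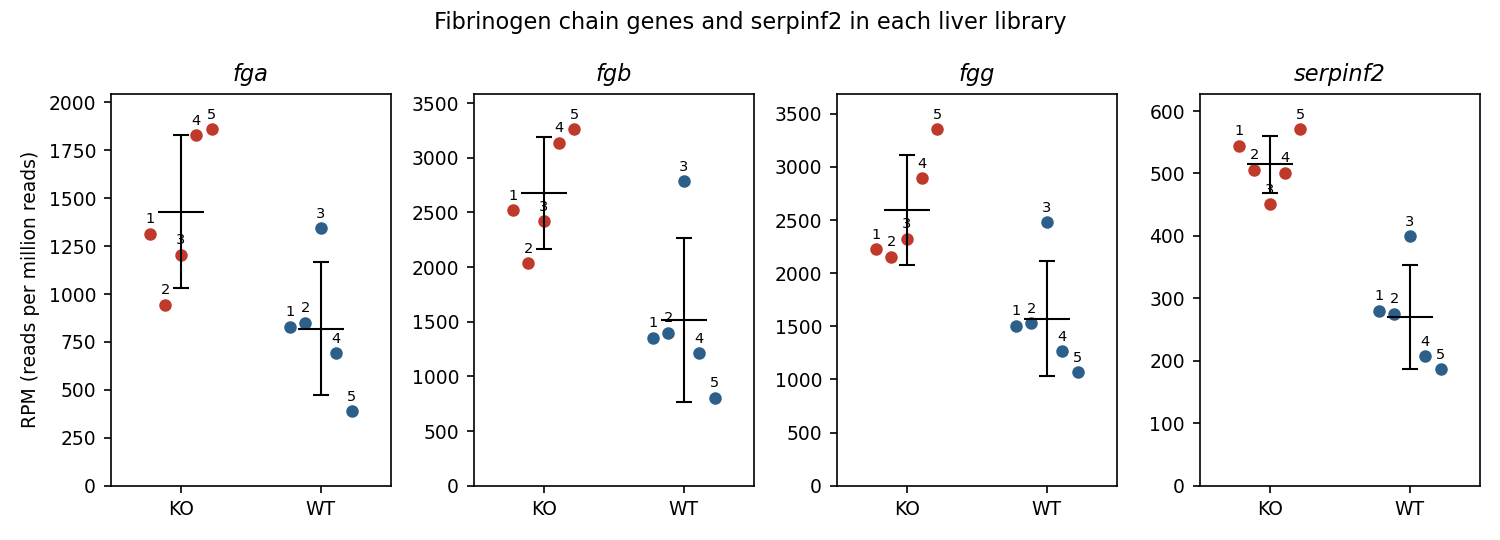
RPM of fga, fgb, fgg and serpinf2 in each liver library, KO left and WT right; points are libraries with their replicate number, bars are the mean ± SD of 5 libraries. WT3 overlaps with KO in the chain genes, whereas serpinf2 has no overlap, with 451 to 571 RPM in KO and 187 to 399.6 RPM in WT.

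In the 9 libraries whose read counts were recovered, the fewest reads were 3804 for fga, 7840 for fgb, 8389 for fgg and 1375 for serpinf2. Counting error at these depths is 1.62%, 1.13%, 1.09% and 2.7% of the value. It is smaller than the variation between libraries, whose coefficient for the chain genes was 19.2% to 28.0% in KO and 34.6% to 49.7% in WT.

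Taken as 1 quantity, fibrinogen transcripts made up 6057, 5137, 5948, 7860 and 8478 RPM in KO1 to KO5. In WT1 to WT5 they made up 3692, 3778, 6612, 3169 and 2263 RPM. The means were 6696 ± 1408 RPM in KO and 3903 ± 1630 RPM in WT (SD, n = 5 each). The log2 difference was 0.84, and an exact two-sided permutation test over the libraries gave p = 0.0317, where 0.00794 is the smallest p possible. The chain genes were chosen with earlier results of these data known, and this p does not account for that choice. Shifts between 0.16 and 1.41 log2 units were not rejected by that test at 0.05. Without WT3 the log2 difference was 1.06 (p = 0.00794, exact permutation test). WT3 is the only wild-type library that overlaps with KO, so leaving it out fixes full separation and that p is no independent support. Leaving out KO4, KO5, WT4 or WT5 alone gave an exact permutation p of 0.0556, which did not pass at 0.05.

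The mean proportions of the chains in the summed fibrinogen reads were near each other in KO and WT. Single libraries spread more widely, with fgg at 36.7% to 42.0% of the sum in KO and 37.5% to 47.3% in WT. fga took 21.1 ± 1.85% of the sum in KO and 20.8 ± 2.25% in WT. fgb took 40.1 ± 1.16% in KO and 37.9 ± 2.54% in WT. For fgg the share was 38.8 ± 2.18% in KO and 41.2 ± 3.63% in WT (mean ± SD, n = 5 each). In every library of both genotypes fga gave the fewest reads, while the ratio of fgg to fgb reads lay between 0.882 and 1.06 in KO and between 0.89 and 1.33 in WT, with WT5 highest. These are ratios of reads and also hold how well each 3' end is captured and annotated, so they are not counts of protein chains.

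**Figure D2:**
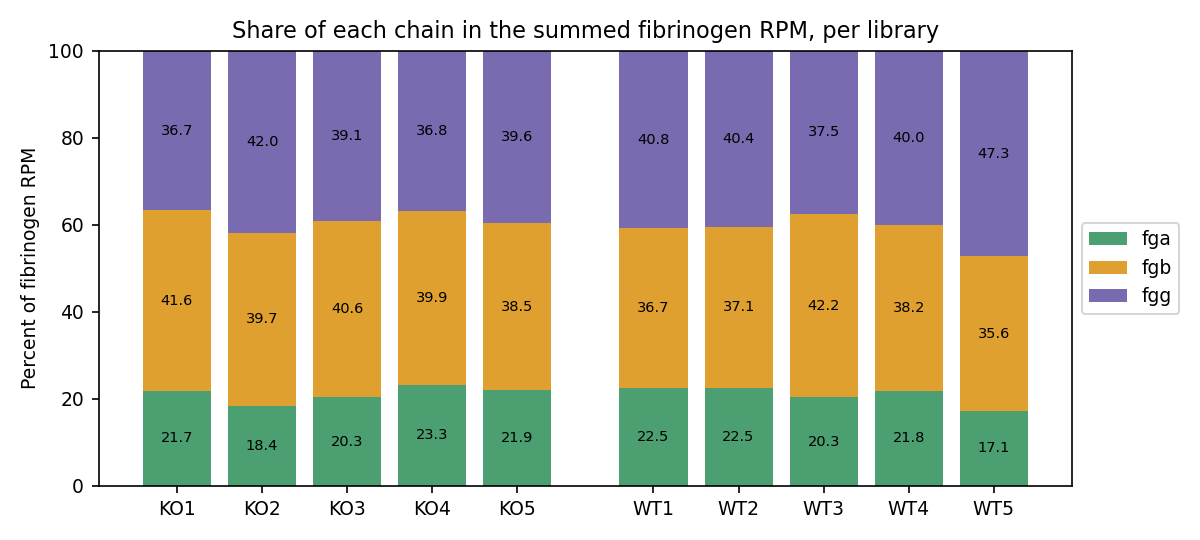
Percent of the summed fibrinogen RPM from fga, fgb and fgg in each library, KO1 to KO5 left and WT1 to WT5 right. fga is the smallest share everywhere, at 18.4% to 23.3% in KO and 17.1% to 22.5% in WT, and WT5 has the largest share of fgg, 47.3%.

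None of the ratios between members differed between genotypes beyond the spread of the libraries. The ratio of fga to fgb reads was 0.528 ± 0.0495 in KO and 0.551 ± 0.0649 in WT, a log2 difference of -0.06 with shifts of -0.29 to 0.19 not rejected. That of fgg to fgb was 0.971 ± 0.0728 in KO and 1.09 ± 0.158 in WT, with a log2 difference of -0.16 (-0.39 to 0.07). For fga to fgg the ratio was 0.547 ± 0.0737 in KO and 0.511 ± 0.0832 in WT, with a log2 difference of 0.10 (-0.21 to 0.45). The ratio of serpinf2 to summed fibrinogen was 0.0791 ± 0.0148 in KO and 0.0715 ± 0.00869 in WT, with a log2 difference of 0.13 (-0.19 to 0.47). Exact two-sided permutation tests gave p = 0.532, 0.159, 0.524 and 0.381 for the 4 ratios in this order, all 0.532 after Benjamini-Hochberg adjustment. These intervals still hold differences in either direction, so equal ratios are not shown.

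The chain genes also followed each other from library to library. Over the 10 libraries, log2(RPM + 1) of fga and fgb had a Pearson r of 0.98 and ranked the libraries identically (Spearman rho 1.0). For fgb and fgg r was 0.98 and rho 0.99, and for fga and fgg r was 0.96 and rho 0.99. Each of these had an adjusted p of 2.0e-05 over 6 pairs, from permutation tests with 100000 resamples whose smallest p is 1e-05. The resamples mixed the genotypes, so these p-values also hold the difference between KO and WT. Without the 2 libraries farthest from the median r was 0.96, 0.97 and 0.94. With each genotype centred on its own mean, r was 0.96, 0.97 and 0.93. For serpinf2, whose genotypes do not overlap, only the centred values are given, and these were 0.82 with fga, 0.89 with fgb and 0.87 with fgg. These r values describe 10 libraries in which all genes share the library total.

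In the same libraries, fibrinogen was low where egg protein transcripts were high. The vitellogenin genes vit-6 and ol-vit1 and the choriogenin gene 1-sf, which encode yolk precursors and egg envelope protein, took 0.593%, 6.95%, 0.571%, 0.428% and 0.479% of the reads in KO1 to KO5. In WT1 to WT5 they took 10.4%, 13.3%, 2.77%, 12.4% and 14.0%. WT3, with the highest fibrinogen of WT, had the lowest egg protein share of WT, and KO2, with the lowest fibrinogen of KO, had the highest of KO. When the egg protein genes were taken out of each library total, the log2 difference of summed fibrinogen was 0.71 (p = 0.0317, exact permutation test), against 0.84 with them in. That of serpinf2 was then 0.84 (limma adjusted p = 0.0134). On those totals, the egg protein share and log2 summed fibrinogen had r = -0.91 (permutation p = 0.00019) and rho = -0.90 (permutation p = 0.00106) over 10 libraries, a relation computed after the values had been seen. The permutations mixed the genotypes, so these p-values also hold the difference between KO and WT. Without the 2 libraries farthest from the median r was -0.91, and with each genotype centred on its own mean it was -0.80. The part of the egg protein level in the difference between genotypes was not tested.

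**Figure D3:**
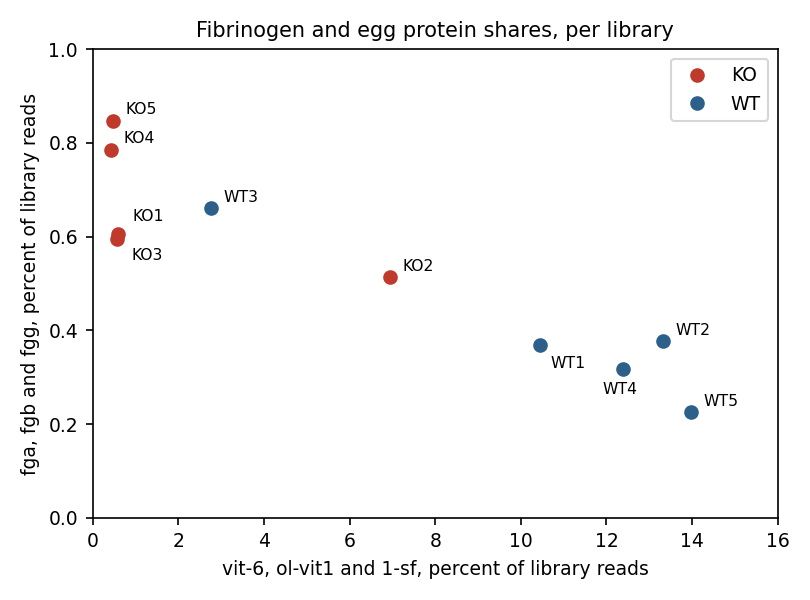
Percent of library reads from the egg protein genes vit-6, ol-vit1 and 1-sf (horizontal) and from fga, fgb and fgg together (vertical), 1 point per library, KO red and WT blue. The libraries run from KO4 and KO5, with under 0.5% egg protein reads, to WT5, with 14.0% egg protein and 0.226% fibrinogen reads, and WT3 and KO2 lie between the others.

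Few other genes of clotting could be tested, and the counts of 0 called below stand beside 2.85% over all genes, so they say little about these groups. Of 14 procoagulant factors looked for by symbol, 3 were found and 2 tested, f3 and f13a1, both under 6 RPM on average and not called. f3 encodes tissue factor, which starts clotting, and had 2.88 ± 1.05 RPM in KO and 2.08 ± 1.7 RPM in WT. f13a1 encodes the transglutaminase that crosslinks fibrin, and had 4.13 ± 0.897 RPM in KO and 5.08 ± 2.78 RPM in WT.

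Of 6 anticoagulant genes none passed in limma, at a median log2 fold change of 0.28 against -0.19 for all tested genes. The largest was tfpi2, which encodes a Kunitz-type protease inhibitor, with 53.9 ± 16.4 RPM in KO and 28.8 ± 19.4 RPM in WT (1.03 ± 0.33, limma adjusted p = 0.103). It passed without WT3 (1.35, limma adjusted p = 0.0035) and with TMM scaling (1.24, limma adjusted p = 0.0483), and 2 of the 6 genes passed without both WT3 and KO2. The antithrombin gene serpinc1 had 322 ± 68.0 RPM in KO and 304 ± 118 RPM in WT, a log2 fold change of 0.14 ± 0.23. The protein C gene proc had 243 ± 51.1 RPM in KO and 193 ± 67.9 RPM in WT (0.37 ± 0.22), and the heparin cofactor II gene serpind1 had 402 ± 85.2 and 326 ± 84.0 RPM (0.32 ± 0.20). serpina10, whose product inhibits factor Xa in mammals, had 392 ± 80.7 RPM in KO and 364 ± 95.7 RPM in WT. WT3 had the highest wild-type value in 6 of these 6 genes, as in all 4 members, so leaving it out raises their log2 fold changes by construction.

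Among genes of fibrin breakdown 7 were found and 3 tested, and none was called. cpb2, whose product, a carboxypeptidase, slows fibrin breakdown, had 171 ± 10.1 RPM in KO and 168 ± 33.6 RPM in WT (0.05 ± 0.17). The plasminogen activator gene plat had 1.19 ± 0.5 RPM in KO and 1.53 ± 1.21 RPM in WT, and the inhibitor gene serpine2 had 10.1 ± 2.62 and 11.2 ± 5.71 RPM. Of the vitamin K cycle, which carboxylates clotting factors, 3 of 3 genes were tested and none called, at -0.23 ± 0.24 for the carboxylase gene ggcx and -0.60 ± 0.30 for the reductase gene vkorc1.

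The rise of serpinf2 was set against other liver serpins in the same libraries, a comparison chosen after their values had been seen. Its neighbour by name, serpinf1, which encodes pigment epithelium-derived factor, had 373 ± 40.2 RPM in KO and 292 ± 71.9 RPM in WT (0.38 ± 0.18, limma adjusted p = 0.307). The ratio of serpinf2 to the geometric mean of serpinc1, serpind1, serpina10 and serpinf1 was 1.56, 1.74, 1.19, 1.36 and 1.23 in KO1 to KO5. It was 0.924, 0.811, 0.88, 0.737 and 0.871 in WT1 to WT5. The ratios did not overlap, and WT3, which was also the highest wild-type library of each of these serpins, lay between other wild-type libraries. The log2 difference was 0.74, with shifts of 0.45 to 1.03 not rejected, and its adjusted p was 0.00794, the smallest that the exact permutation test can give. serpinf2 alone already had no overlap between the groups, and this p does not account for the choice of the comparison.

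Summed fibrinogen was set against the same 4 serpins, a comparison likewise chosen after the values had been seen. The p below does not account for that choice. The ratio was 17.4, 17.6, 15.6, 21.4 and 18.3 in KO1 to KO5 and 12.1, 11.1, 14.5, 11.2 and 10.5 in WT1 to WT5. WT3 was again the highest of WT, but now lay below every knockout library. WT3 was also the highest wild-type library of each of the 4 serpins, and KO2 the lowest knockout library of most of them. Dividing by these serpins therefore lowers WT3 and raises KO2 within their groups by construction, and the full separation is no independent support. The log2 difference was 0.60, with shifts of 0.33 to 0.84 not rejected (adjusted p = 0.00794 over these 2 ratios, exact permutation test). A ratio within a library does not depend on its total, so it holds under any scaling of the RPM, but it shows an unequal change and not which gene changed.

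Genes named after fibrinogen or sharing its domain were looked at as well. Of 6 fibrinogen-related genes, 5 were tested and none called. fibcd1 had 12.2 ± 6.35 RPM in KO and 13.3 ± 1.49 RPM in WT, and fgl2 had 4.93 ± 3.84 RPM in KO and 3.32 ± 2.61 RPM in WT.

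Known regulators of fibrinogen transcription were measured too. All 12 genes found were tested, and none was called, at a median log2 fold change of -0.03. cebpa, a transcription factor of hepatocyte genes, had 81.1 ± 23.6 RPM in KO and 97.9 ± 13.7 RPM in WT (-0.31 ± 0.21). stat3, which carries the interleukin-6 signal of the acute phase, had 31.8 ± 6.79 RPM in KO and 38.8 ± 9.67 RPM in WT (-0.27 ± 0.22). Of the genes named socs3, feedback inhibitors of that signal, the one with more reads had 5.66 ± 2.99 RPM in KO and 3.58 ± 2.45 RPM in WT (limma adjusted p = 0.521).

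The ER factors that fold and export secreted proteins moved the other way from the fibrinogen genes. Of 11 tested in limma, 8 fell, 3 missed the threshold and none rose, where 1.68% of all tested genes were called lower. In 7 of those 8 every KO library lay below every WT library, which held for 2.6% of all genes. Their list, chosen with earlier results of these data known, was at a median log2 fold change of -1.43. The chaperone gene hsp90b1 had 392 ± 148 RPM in KO and 1493 ± 456 RPM in WT (-1.95 ± 0.29). p4hb, the protein disulfide isomerase gene, had 337 ± 73.7 RPM in KO and 758 ± 143 RPM in WT (-1.17 ± 0.19). In mammals lman1 and mcfd2 form the receptor that carries clotting factors V and VIII out of the ER. lman1 had 52.0 ± 3.9 RPM in KO and 178 ± 79.0 RPM in WT (-1.61 ± 0.28), and mcfd2 had 69.3 ± 10.3 RPM in KO and 233 ± 101 RPM in WT (-1.61 ± 0.28). The other 4 that fell were hspa5 (-1.43), dnajc3 (-1.33), pdia6 (-1.57) and pdia4 (-2.18). WT3, the highest wild-type library of the fibrinogen genes, was the lowest wild-type library in 8 of these 8.

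**Figure D4:**
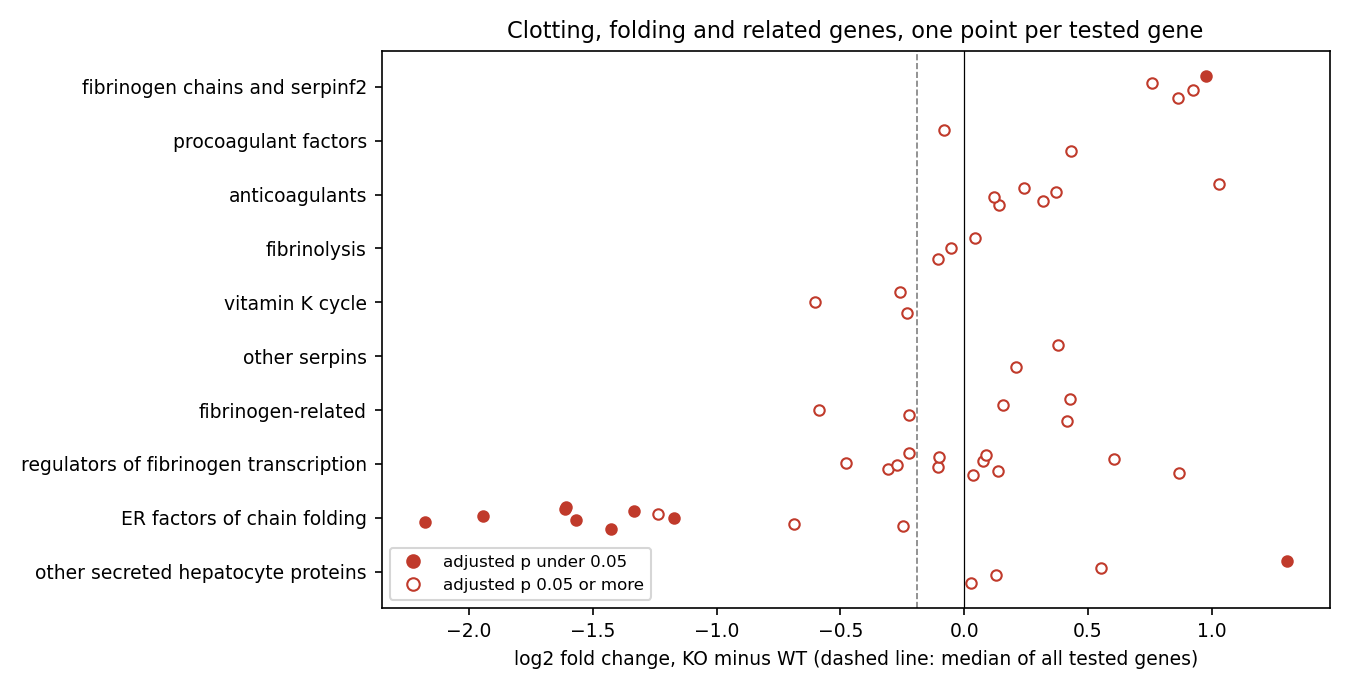
Log2 fold change (KO minus WT, from log2(RPM + 1)) of each tested gene, by list; filled points passed the limma test at an adjusted p under 0.05, and the dashed line is the median of all tested genes, -0.19. The fibrinogen genes and serpinf2 lie at 0.76 to 0.98, and the ER factors all lie below 0.

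Of 15 other secreted hepatocyte proteins looked for by symbol, 4 were found and tested. Of these 4, 1 was called higher, where 1.17% of all tested genes were. It was the heme carrier gene hpx, at 12080 ± 1598 RPM in KO and 5159 ± 2155 RPM in WT (1.30 ± 0.24, limma adjusted p = 0.00454). Without a filter on low genes hpx missed the threshold (limma adjusted p = 0.0679). The others were rbp4, itih3 and itih2, at log2 fold changes of 0.03, 0.55 and 0.13. Markers of other cells that liver tissue can hold were also measured, and none of those tested was called in limma. Both ovary genes and the thrombocyte genes mpl and thbs1 did not pass the filter and were not tested. The 4 thrombocyte genes found summed to 5.26 to 10.7 RPM in KO and 9.28 to 14.8 RPM in WT, the 3 endothelial genes to 31.7 to 52.4 RPM in KO and 23.1 to 49.1 RPM in WT, and the 4 of stellate cells and fibroblasts to 14.9 to 28.4 RPM in KO and 17.3 to 33.3 RPM in WT. The 2 bile duct genes summed to 99.3 to 154 RPM in KO and 84.4 to 110.3 RPM in WT, the 2 ovary genes to 0.123 to 2.87 RPM in KO and 0.102 to 0.875 RPM in WT, and the single pancreas gene, cpb1, had 3.52 to 71.9 RPM in KO and 12.2 to 208 RPM in WT. No macrophage or erythrocyte marker was matched by symbol.

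Genes that lie next to the members were looked at after values had been seen. LOC101172532, the gene between fga and fgb, had 24.9 ± 8.67 RPM in KO and 19.2 ± 12.3 RPM in WT (0.47 ± 0.33, limma adjusted p = 0.504). plrg1, a splicing factor gene beside fgg, had 10.2 ± 1.84 RPM in KO and 9.97 ± 4.68 RPM in WT (0.14 ± 0.32). On the other side of fgg, LOC101162811 had 0.85 ± 0.782 RPM in KO and 2.08 ± 2.55 RPM in WT (-0.54 ± 0.48). Beside serpinf2, wdr81 had 4.09 ± 0.3 RPM in KO and 4.41 ± 1.62 RPM in WT (-0.04 ± 0.31), and rpa1 had 2.12 ± 1.75 and 1.54 ± 0.903 RPM (0.16 ± 0.45). None of these passed in limma. LOC101162714 beside fga and LOC101173015 beside fgb did not pass the filter and were not tested.

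Genes with the most similar course over the libraries were ranked by Pearson r after centring each genotype, over 10 libraries and 3610 genes with a symbol and at least 10 RPM. For the mean of the fibrinogen chains they were scrib (0.96), serpinc1 (0.96), pah (0.96), gchfr (0.95), proc (0.95) and ctsl (0.94). None of these passed between genotypes in limma, and scrib, with 1117 RPM in KO and 885 RPM in WT, was the most similar. The mean of serpinc1, which is named here because its r ranked among the highest, differed by 0.14 ± 0.23 log2 units between the genotypes. For serpinf2 they were uroc1 (0.96), smoc1 (0.95), phf20 (0.94), dapl1 (0.94), tat (0.94) and hyi (0.94), of which hyi, the gene of a hydroxypyruvate isomerase, rose (1.03 ± 0.25, limma adjusted p = 0.0324).

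Scaling changed whether the fibrinogen genes passed. With TMM scaling, which equalises most genes between libraries, fga, fgb and fgg passed with limma adjusted p = 0.0473, 0.0292 and 0.0294 and with log2 fold changes of 1.08, 1.14 and 0.97. Under TMM 2.09% of genes were called higher and 0.881% lower, and the median of all tested genes was at -0.01 log2 units, against -0.19 as deposited. With median-of-ratios scaling, where 1.98% were called higher, they passed at 0.0494, 0.0305 and 0.0303 in limma. With the egg protein genes out of the total, which moves values the other way, the same genes had log2 fold changes of 0.73, 0.79 and 0.62 and limma adjusted p-values of 0.104, 0.0641 and 0.0826, where 0.981% of genes were called higher. On recovered reads of 9 libraries DESeq2 passed all of them, at adjusted p-values of 0.0499, 0.0324 and 0.0254. It gave an adjusted p to only 7698 genes, of which 4.03% were called higher. edgeR passed none, at adjusted p-values of 0.188, 0.157 and 0.142, with 0.874% of all 14984 genes higher. The adjusted p-values and percents of these tools rest on unlike sets of genes. The 9 libraries also lack KO5, the highest knockout library of all 4 members. In limma without KO5 no chain gene passed either, at adjusted p-values of 0.219, 0.150 and 0.175. Robust variances passed fgg alone among the chain genes (limma adjusted p = 0.0241, with 1.15% higher), and leaving out KO2 passed fgb alone (limma adjusted p = 0.0489, with 1.18% higher). Without WT3 all of them passed, with limma adjusted p = 0.00867, 0.000771 and 0.0028, where 2.44% of genes were called higher. WT3 is the highest wild-type library of each chain gene, so leaving it out widens their difference by construction. serpinf2 passed under each of these settings, and the direction of all 4 genes was the same in all of them.

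**Figure D5:**
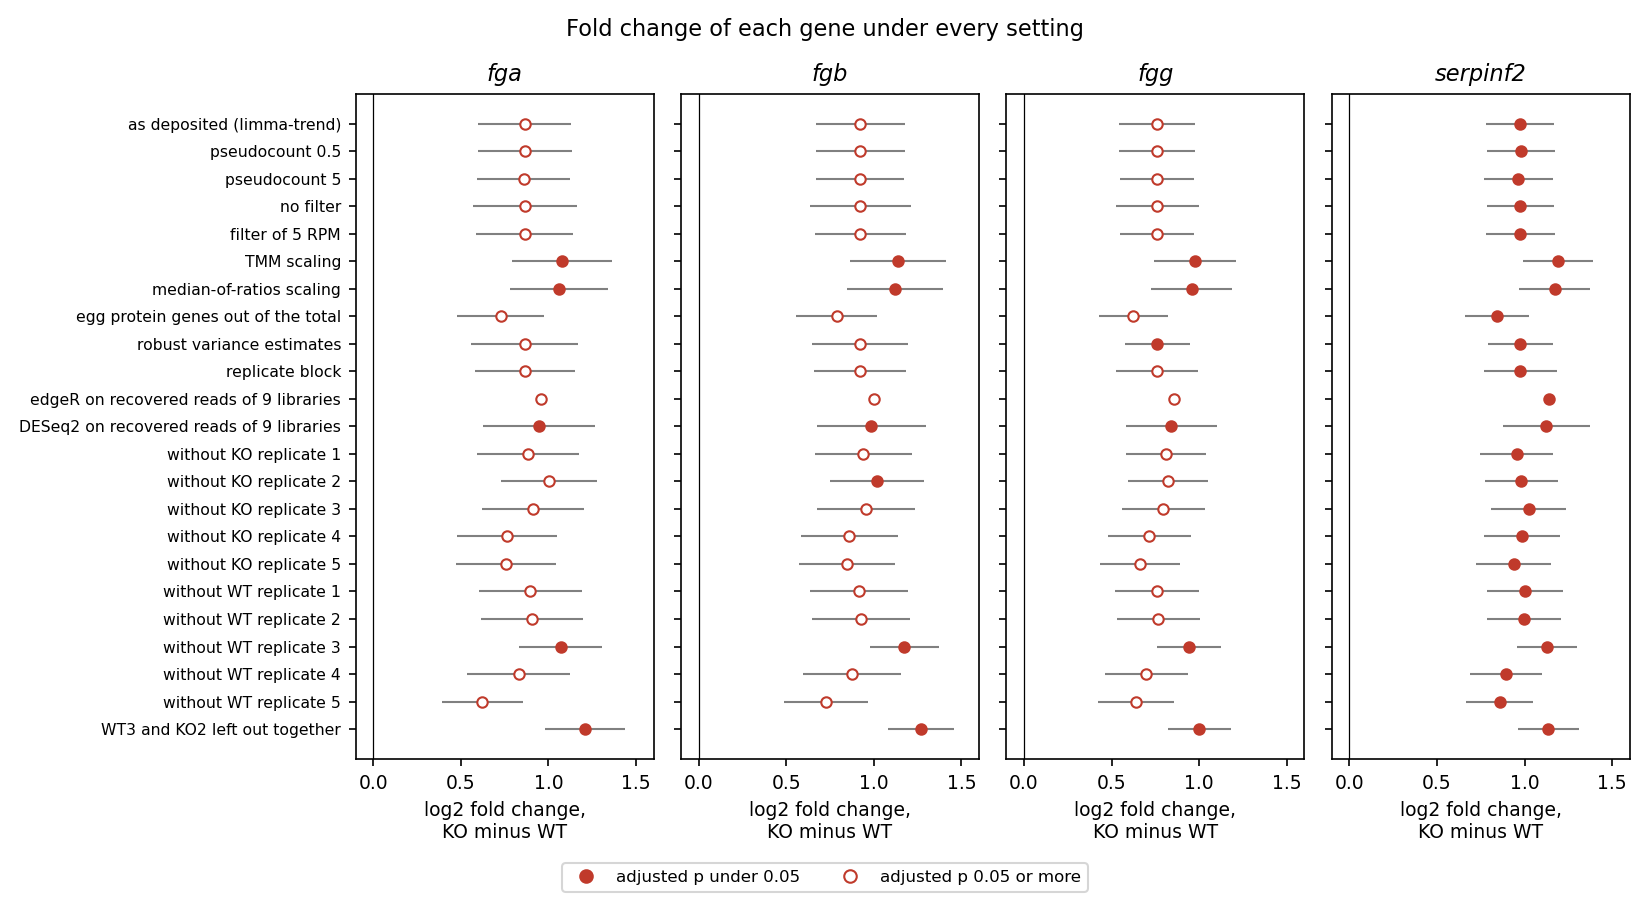
Log2 fold change, KO minus WT, of the 4 genes with each setting of the analysis (points, with SE where the tool gives it; edgeR points have none); filled points had an adjusted p under 0.05. All points lie above 0, serpinf2 is filled throughout, and the chain genes are filled with TMM or median-of-ratios scaling, DESeq2, without WT3 and without both WT3 and KO2, with fgb also filled without KO2 and fgg with robust variances. For the chain genes WT3 is the highest WT library and KO2 the lowest KO library, so leaving them out widens the difference.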

How the data were processed

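Groups came from the sample titles. Per the labels' protocols the libraries are Lasy-Seq v1.1, and Salmon 1.4.0 and BWA 0.7.17-r1188 appear, with no role, in the submitters' processing notes. The build of the genome is not given in the sources used here. RPM values were deposited by the authors. These RPM values sum to 1000000 in each library. All 25795 gene IDs matched a RefSeq gene table (assembly ASM223467v1), used for names and neighbours only.

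In each library 100.0% of values were whole multiples of its smallest value above 0, within 1e-06 of a read, which gave the read totals. The counts recovered from the deposited RPM were used for edgeR and DESeq2 in 9 libraries. KO5 was left out of them as a precaution, because 1 of its reads is worth 0.0989 RPM, close to a power of 10. Its values were whole multiples of that step, as in the other libraries. Its read total, the highest of KO, rests on that step.

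The 14984 genes that reached 1 RPM in 5 or more libraries were tested with limma 3.58.1 in R 4.3.3 on log2(RPM + 1), with a variance trend, no covariates and Benjamini-Hochberg adjustment over all of them. Ratios and sums used exact two-sided permutation tests over libraries, and their intervals are the shifts that this test does not reject at 0.05. The limma step and the permutation test were tested on simulated data. edgeR 4.0.16 (quasi-likelihood), DESeq2 1.42.0, other scalings, pseudocounts and filters, robust variances, the replicate number as a block and leaving out libraries were alternatives.

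Members and lists were chosen with earlier results of these data known. Lists were matched by symbol, with a paralog suffix of 1 letter or digit allowed and 16 symbols of unrelated genes dropped. Named are the members, called list genes or otherwise up to 4 by mean RPM, and the 6 genes most like the members; others were named after their values were seen. Some list genes are not reported here by name. Promoter motifs were planned but not analysed here. The rest used scipy 1.17.1, numpy 2.4.6, matplotlib 3.10.9 and pandas 2.3.3 under Python 3.11.15.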

Additional observations from a re-analysis of the deposited data

Results flagged for a closer look

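The ratio of fga to fgg reads in WT5 stood apart from the other wild-type libraries, at 0.362 against 0.541 to 0.557 in WT1 to WT4. The gap to the nearest library was 0.918 of the range of the group, above Dixon's 95% critical value of 0.71 for 5 libraries. The knockout libraries ranged from 0.438 to 0.631. Chance flags about 1 in 20 groups of this size, and 18 groups were looked at. Without WT5 the log2 difference of this ratio was -0.01 in place of 0.10, neither past the threshold.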

How the results depend on the processing

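serpinf2 passed in all 22 alternatives, and no result turned its direction past the threshold. The fibrinogen genes gained the call with TMM scaling (log2 fold change 1.08 for fga, 1.14 for fgb and 0.97 for fgg), median-of-ratios scaling (1.06, 1.12 and 0.96), DESeq2 (0.94, 0.99 and 0.84) and without both WT3 and KO2 (1.21, 1.27 and 1.00), and fgg also with robust variances (0.76). For the chain genes WT3 was the highest wild-type library and KO2 the lowest knockout library. Leaving out either or both therefore widens their difference by construction, and calls gained that way are no independent support. Leaving out 1 library gave 0.62 to 1.07 for fga, 0.73 to 1.18 for fgb, 0.64 to 0.94 for fgg, 0.67 to 1.06 for summed fibrinogen, 0.66 to 0.80 for serpinf2 to the other serpins and 0.54 to 0.68 for summed fibrinogen to them. Over all genes it gave 94 to 365 higher and 104 to 479 lower, with 365 and 479 without WT3. Without a filter 73 genes were higher and 103 lower in KO, with TMM 313 and 132, with median-of-ratios 296 and 143, and without both WT3 and KO2 424 and 621. With the egg protein genes out of the total 424 were lower, with edgeR 47 were lower, and with DESeq2 310 were higher. The causes were not tested.

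No pairing of libraries by replicate number was seen. Deviations from the group means correlated at -0.0813 to 0.000833 over the 5 pairs of the same number, and at -0.078 to 0.092 over pairs of unlike number. Such correlations cannot show that libraries of the same number share no batch. With the replicate number as a block, summed fibrinogen had a log2 difference of 0.84 (exact permutation p = 0.125), serpinf2 to the other serpins 0.74 and summed fibrinogen to them 0.60 (adjusted p = 0.0625 each, the smallest that this permutation test can give). serpinf2 itself kept its call with the block (limma adjusted p = 0.0244). Depth limits the genes under 6 RPM, which few reads measured.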
